A study of Homo sapiens with 18 samples.

Results

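RNA from 16D cells carrying the first of the guides against OGDHL was compared between cells kept in enzalutamide and cells kept in DMSO vehicle. The comparison used 6 of the 18 libraries of the series, 3 with enzalutamide and 3 with vehicle, taken by their labels. It covered the 14663 of 26863 named genes that had 1 TPM or more in at least 3 of those 6 libraries. TPM is a transcript level corrected for transcript length and library size. 16D CRPC is a castration-resistant prostate cancer cell line. The cells had received lentivirus with Cas9 and a guide RNA, sgOGDHL guide 1 here and a guide to the AAVS site in the control cells, so that all groups carried Cas9, a guide and virus. They were then grown in RPMI 1640 with serum for 6 weeks with DMSO or with 10 µM enzalutamide. The control cells gave 3 libraries with vehicle and 3 with enzalutamide, and served as the measure of the drug response without cutting of OGDHL. The libraries of guide 2 entered no comparison here. The labels do not say whether the cells of a guide were a pool or a clone, how OGDHL was edited, or whether replicates were separate cultures, and p-values therefore reflect the variation among these libraries alone, which could be technical. Changes are enzalutamide less vehicle as log2(TPM + 1), a scale on which changes of low genes come out too small, and a gene was called where limma gave a Benjamini-Hochberg adjusted p under 0.05 over all genes tested.

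Androgen acts on prostate epithelium through a hormone-activated transcription factor that drives genes such as those of the kallikreins and of lipid synthesis. Enzalutamide blocks that signal, which lowers genes that androgen raises and relieves genes that androgen represses. OGDHL is a relative of OGDH, the subunit of the 2-oxoglutarate dehydrogenase complex that decarboxylates 2-oxoglutarate in the citric acid cycle, and 2-oxoglutarate is also the co-substrate of the hydroxylases and demethylases that sense oxygen and modify chromatin.

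The vehicle libraries of guide 1 were the most variable. Mitochondrially encoded rows, which were left out before each library was rescaled to the same total, held 73.8%, 69.9% and 57.2% of the TPM in guide 1 vehicle replicates 1, 2 and 3, against 57.7% to 60.4% with enzalutamide and 50.3% to 60.2% in the 6 control libraries. The share was thus high in guide 1 vehicle replicates 1 and 2, while vehicle replicate 3 lay just under the drug libraries. Its part in the results was not tested. All 12 libraries had the luminal factors FOXA1 and HOXB13 and had KRT5 and TP63, which mark basal cells, under 0.1 TPM. Of 11 leukocyte markers 9, of 8 endothelial markers all and of 8 fibroblast markers 6 were under 1 TPM in every library. Of 12 prostate basal markers 10 were so, and the others reached 1 TPM in at least 1 library. The summed basal markers were 11.47 to 13.04 TPM in guide 1 vehicle libraries and 9.25 to 9.63 TPM with enzalutamide. In control cells they were 9.41 to 9.99 TPM without and 8.86 to 9.12 TPM with the drug. The summed fibroblast markers, nearly all COL1A1, were 18.1 to 21.0 TPM in guide 1 vehicle libraries and 12.1 to 13.5 with enzalutamide, and 17.0 to 17.95 and 10.5 to 11.99 TPM in control cells. The 2 basal markers tested were called in opposite directions in guide 1 cells, as were the 2 fibroblast markers tested. These sums therefore do not describe each marker. In bulk RNA, fewer cells of a kind and less RNA per cell cannot be told apart.

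OGDHL (chromosome 10, 49734643 to 49762379, minus strand, GRCh38) had 2.30, 2.71 and 3.75 TPM in guide 1 vehicle libraries and 3.07, 3.27 and 2.79 TPM in guide 1 enzalutamide libraries. The groups overlapped, and the change was 0.059 (SE 0.14, adjusted p = 0.78). In control cells OGDHL was 5.61, 5.73 and 5.497 TPM without and 9.20, 9.81 and 9.23 TPM with the drug, with every drug library above every vehicle library (0.66, adjusted p = 2.3e-05). All 6 guide 1 libraries were under all 6 control libraries. The change in guide 1 cells was smaller than that in control cells by limma's interaction term (-0.60, adjusted p = 0.021), a call that was lost without guide 1 enzalutamide replicate 3 (-0.55, adjusted p = 0.051) or control vehicle replicate 3 (-0.58, adjusted p = 0.050) and with mitochondrially encoded rows kept (-0.31, adjusted p = 0.28). OGDH, at 23.0 to 29.4 TPM without and 26.8 to 28.3 TPM with the drug, did not pass (0.057, adjusted p = 0.69).

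Most of the large drug response of control cells, among the genes tested, was called in guide 1 cells too. The filter used guide 1 libraries alone, so genes under it there could not enter these counts, whatever their level in control cells. In guide 1 cells 3462 genes (23.6%) were called, 1692 higher and 1770 lower, with 196 and 224 of them changed at least 2-fold. In control cells 8977 (61.2%) were called, 4877 higher and 4100 lower, with 382 and 359 changed at least 2-fold. Of the 382 genes that rose at least 2-fold in control cells, 303 (79.3%) were called higher in guide 1 cells, where 11.5% of all genes were called higher, and 4 were called lower. Their median change was 1.41 in control and 0.80 in guide 1 cells. Of the 359 that fell at least 2-fold in control cells, 291 (81.1%) were called lower in guide 1 cells, against 12.1% of all genes, and 10 were called higher, with median changes of -1.38 and -0.97. The interaction term called the rise smaller in guide 1 cells for 282 of the 382 and the fall smaller for 212 of the 359, and the change larger for 5 and 20. In the other direction, 173 of the 196 genes that rose at least 2-fold in guide 1 cells were called higher in control cells, and 215 of the 224 that fell were called lower there. Of the 196, whose medians were 1.33 in guide 1 and 1.63 in control cells, the interaction called the rise smaller in guide 1 cells for 93 and larger for 29. Of the 224, with medians of -1.35 and -1.47, it called the fall smaller for 65 and larger for 45. Choosing genes by a large change in 1 kind of cell favours a smaller value in the other. When 1 guide 1 library was left out, 257 to 323 of the 382 and 261 to 302 of the 359 were called in the same direction. With guide 1 vehicle replicate 3, the vehicle library of lowest mitochondrial share, as the only vehicle library, 300 and 312 were. That alternative was chosen after seeing the data and assumes the lone library to vary like the drug group. With mitochondrially encoded rows kept, 167 of the 268 and 90 of the 256 that had a value were. Across all 14663 genes Pearson's r of the 2 sets of changes was 0.678, as a description, since genes are not independent. Calls in both cells with the same sign numbered 2637, 76.2% of the guide 1 calls and 29.4% of the control calls, and 155 genes were called in opposite directions. The number of guide 1 calls was 7430 without guide 1 vehicle replicate 3, 1572 without vehicle replicate 2, and 1544, 1630 and 1584 without enzalutamide replicates 1, 2 and 3, and the calls shared with control cells were then 4131, 1351, 1320, 1399 and 1360. Called interactions numbered 3412, 1403 above and 2009 below 0, and 7371 without guide 1 vehicle replicate 3. Median-of-ratios scaling turned the split of called interactions to 2042 above and 1546 below 0, and that of control calls to 3954 higher and 5248 lower.

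**Figure D1:**
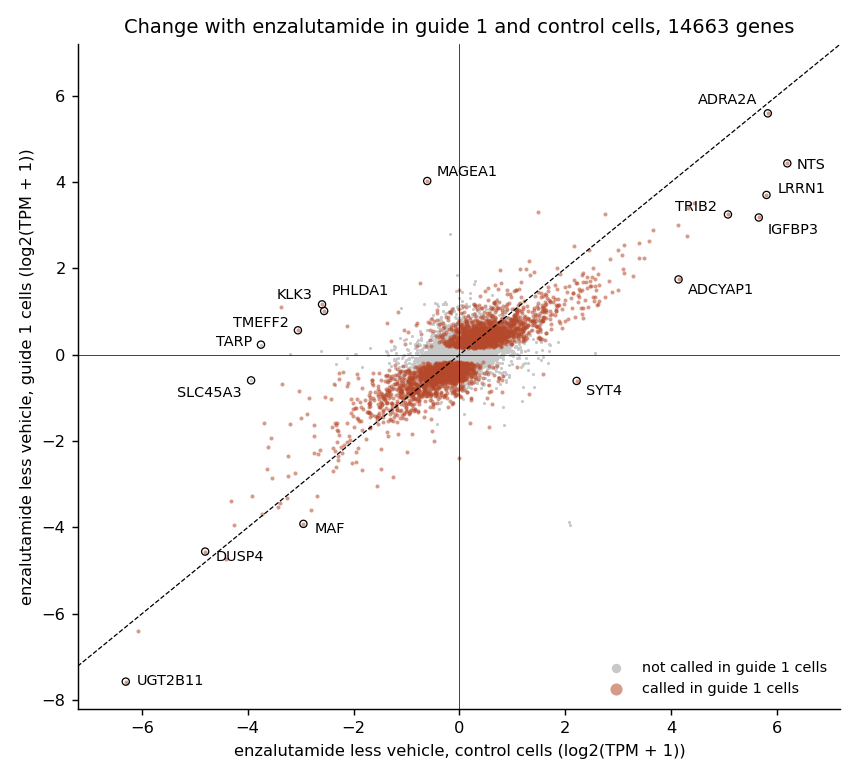
Each point is 1 of 14663 genes, with its change in control cells (x axis) and in guide 1 cells (y axis), both as enzalutamide less vehicle on the log2(TPM + 1) scale; coloured points were called in guide 1 cells, and the dashed line marks equal change. ADRA2A and DUSP4 lie near the line, while KLK3, TMEFF2, PHLDA1 and MAGEA1 lie above 0 in guide 1 cells and below 0 in control cells.

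Among the genes that rose most, ADRA2A, an adrenergic receptor, had 1.54, 1.86 and 2.24 TPM in guide 1 vehicle libraries and 140.2, 137 and 135 TPM with enzalutamide. That is a change of 5.59 (SE 0.10, adjusted p = 4.1e-06), with 5.83 in control cells, and its interaction term did not pass (-0.23, adjusted p = 0.17). NTS, the neuropeptide neurotensin, rose from 0.106, 0.1003 and 0.0812 TPM to 23.6, 20.8 and 23.8 TPM (4.44, adjusted p = 3.4e-06). In control cells NTS reached 74.6 to 79.3 TPM (6.196), so that all 3 guide 1 drug libraries lay below the control drug libraries (interaction -1.76, adjusted p = 2.4e-07). TRIB2, a pseudokinase, rose from 1.06 to 1.29 to 19.1 to 20.0 TPM in guide 1 cells (3.25) and from 1.08 to 1.19 to 69.1 to 75.5 TPM in control cells (5.07, interaction -1.82). IGFBP3, which binds insulin-like growth factors, rose from 11.6, 11.9 and 11.7 to 113, 105 and 127 TPM (3.18) in guide 1 cells, against 5.66 in control cells (interaction -2.48, adjusted p = 2.0e-07). LRRN1 (3.70 against 5.80, interaction -2.10), the transcription factor BHLHE22 (3.01 against 4.12, interaction -1.11) and LRATD1 (2.76 against 4.30, interaction -1.54) also rose in both, less in guide 1 cells. AIDA rose from 28.8, 26.4 and 23.9 to 325, 300.0 and 311 TPM (3.52, 4.44 in control cells), and since AIDAP1 and AIDAP2, its pseudogenes, rose with it, its reads may have been split among copies.

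The genes described here that fell most, UGT2B11, UGT2B28 and UGT2B10, code for UDP-glucuronosyltransferases of the UGT2B family. Some members of that family, though not all, attach glucuronic acid to androgens and so clear them from prostate cells. UGT2B11 fell from 655, 631 and 599 TPM in guide 1 vehicle libraries to 2.85, 2.02 and 2.11 TPM with enzalutamide, a change of -7.57 (SE 0.11, adjusted p = 3.4e-06). In control cells it went from 514 to 533 to 4.70 to 6.81 TPM (-6.30), and in both cells the groups lay far apart. The fall was larger in guide 1 cells by the interaction term (-1.27, adjusted p = 4.9e-04). UGT2B28 (-6.40), UGT2B10 (-4.72), UGT2B15 (-3.61) and UGT2B17 (-2.23) fell too, with control changes of -6.06, -4.42, -2.80 and -2.35. The interaction was called for UGT2B15 (-0.81, adjusted p = 1.6e-05), again a larger fall in guide 1 cells, and not for UGT2B28, UGT2B10 or UGT2B17. These paralogs are alike in sequence, and the sources used here do not give how reads shared by several of them were counted. The likeness reaches upstream of the genes: over 250 bases before the start listed first in RefSeq (GRCh38.p14), UGT2B11 and UGT2B10 were identical in 229 of 254 aligned positions (90.2%), and UGT2B11 and UGT2B15 in 185 of 261 (70.9%). The upstream sequences of the first pair are shown because these members fell together, with the longest identical run of 54 bases in capitals, read 5′ to 3′ on each gene's strand without bases annotated as UTR. UGT2B11 lies on the minus strand (chr4:69214749-69214998) and UGT2B10 on the plus strand (chr4:68815744-68815992).
UGT2B11: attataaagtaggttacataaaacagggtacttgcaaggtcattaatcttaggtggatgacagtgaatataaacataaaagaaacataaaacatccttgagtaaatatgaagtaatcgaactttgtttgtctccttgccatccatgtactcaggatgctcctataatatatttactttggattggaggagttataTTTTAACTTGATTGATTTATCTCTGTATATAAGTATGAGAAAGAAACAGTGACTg
UGT2B10: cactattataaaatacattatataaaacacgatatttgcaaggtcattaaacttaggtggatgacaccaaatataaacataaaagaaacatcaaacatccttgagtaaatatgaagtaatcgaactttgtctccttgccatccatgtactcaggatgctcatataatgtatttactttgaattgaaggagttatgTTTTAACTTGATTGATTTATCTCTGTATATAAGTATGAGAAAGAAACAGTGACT
Of the 13 genes of steroid hormone metabolism tested, of 26 listed, 9 were lower and 1 higher in guide 1 cells, with a median of -0.50 against 0.029 over all genes. Among all genes 12.1% were called lower and 11.5% higher in guide 1 cells. Without guide 1 vehicle replicate 3, 3 were higher and 9 lower. In control cells 10 were lower and 2 higher, where 28% of all genes were called lower and 33.3% higher.

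Other genes that fell to a few TPM or less coded for regulators of signalling, enzymes and other proteins. DUSP4, a phosphatase that switches off ERK, fell from 122, 129.9 and 139 to 4.79, 4.56 and 4.34 TPM in guide 1 cells (-4.56, adjusted p = 3.4e-06), close to the control change of -4.80 (interaction 0.25, adjusted p = 0.096). RGS2, which shortens G protein signals, fell from 67.7 to 77.9 to 4.27 to 5.30 TPM (-3.70, -3.73 in control cells). The sialyltransferase ST6GALNAC1 (-3.95), the protocadherin PCDH20 (-3.43), the calcium-binding S100P (-3.39) and the alcohol dehydrogenase ADH1C (-3.32) fell as well, and control cells gave -4.26, -3.39, -4.32 and -3.26.

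**Figure D2:**
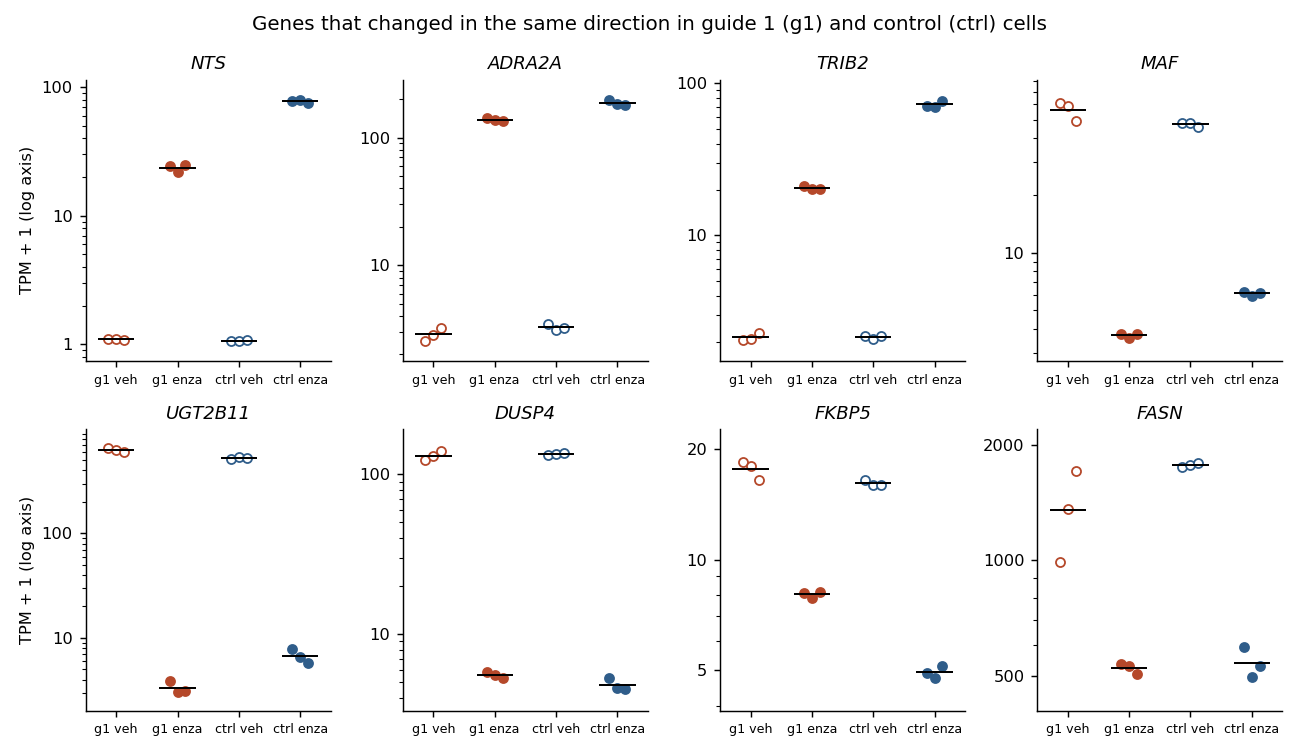
TPM + 1 on log axes for 8 genes in the 3 libraries of each group, guide 1 cells in red and control cells in blue, open points for vehicle and filled points for enzalutamide, with a line at the mean. In all 8 genes the drug libraries lie on the same side of the vehicle libraries in both cells, and NTS and TRIB2 reached higher levels in control cells.

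The androgen axis split in guide 1 cells. Of 35 androgen-responsive genes tested, of 37 listed, 19 were lower and 5 higher in guide 1 cells, with a median change of -0.42. In control cells 33 were lower and 1 higher, with a median of -1.53. The shares of all genes were 12.1% lower and 11.5% higher in guide 1 cells, and 28% and 33.3% in control cells. The interaction term was above 0 and called for 25 of the 35, where 9.57% of all genes were called so, and below 0 and called for 2, against 13.7%. With mitochondrially encoded rows kept, 4 of the list were called lower and 3 higher, and the median was -0.12 beside a median of 0.26 over all genes.

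Several androgen-responsive genes fell in both cells. MAF, a transcription factor, fell from 60.0, 57.7 and 47.9 to 2.77, 2.58 and 2.77 TPM (-3.92, adjusted p = 1.2e-05), and the control change was -2.95, so the fall was larger in guide 1 cells (interaction -0.97, adjusted p = 1.4e-04). NDRG1 (-2.45 against -2.29) and the metalloreductase STEAP4 (-1.87 against -2.08) fell in both, and their interactions were not called. The fatty acyl-CoA ligase ACSL3 (-2.19 against -2.64, interaction 0.44, adjusted p = 0.021) and the zinc finger gene ZBTB10 (-1.20 against -1.71, interaction 0.50, adjusted p = 0.029) fell less in guide 1 cells. Those interactions were lost without guide 1 enzalutamide replicate 1 or 3 or control enzalutamide replicate 2, and that of ZBTB10 also without control vehicle replicate 1 or 2 or control enzalutamide replicate 1. FKBP5, a co-chaperone of steroid receptors, fell from 17.4, 17.0 and 15.5 to 7.12, 6.85 and 7.15 TPM (-1.13, adjusted p = 1.5e-04), with no overlap and less than in control cells (-1.71, interaction 0.58, adjusted p = 2.6e-04). ELL2 (-1.02 against -2.43, interaction 1.41) and C1orf116 (-0.40 against -2.20, interaction 1.79) fell by less than in control cells.

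**Figure D3:**
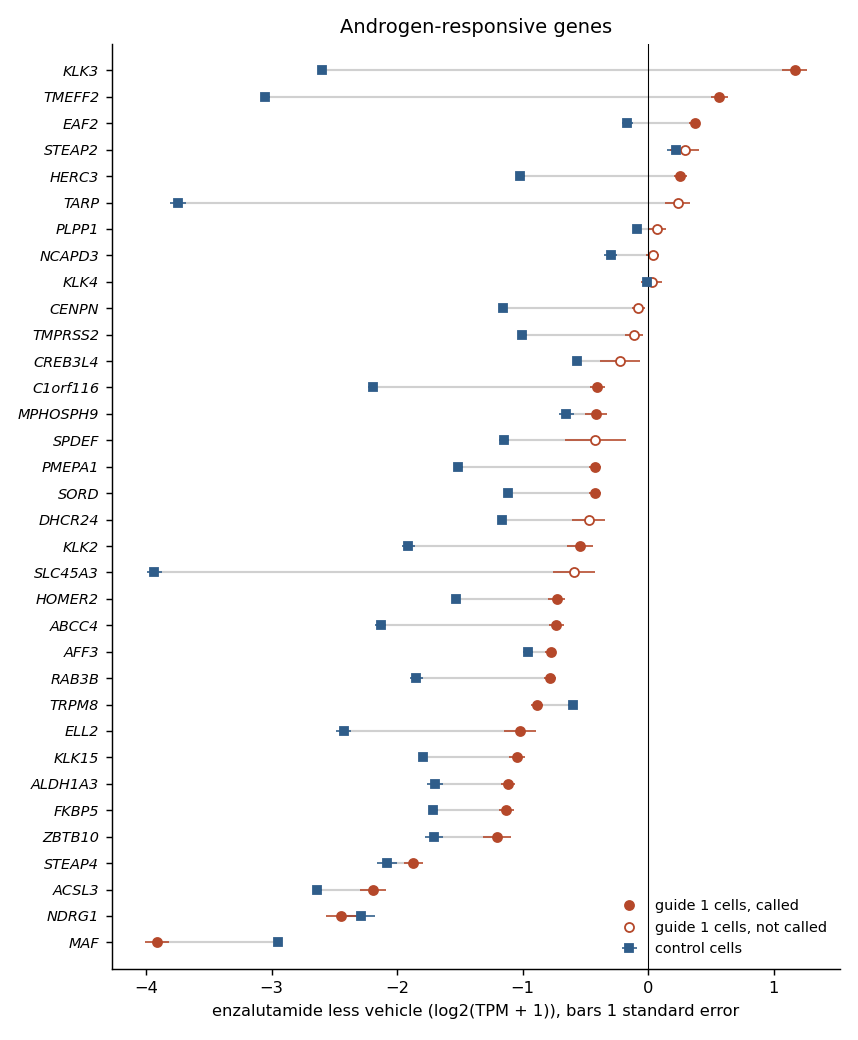
Change with enzalutamide for 34 of the 35 androgen-responsive genes, guide 1 cells as circles (filled where called) and control cells as squares, with bars of 1 standard error. NDRG1 and STEAP4 near the bottom lie close together in both cells, and KLK3, TMEFF2, TARP and SLC45A3 are farthest apart.

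Other genes of the same list rose or were not called lower. KLK3 (chromosome 19, 50854915 to 50860764, plus strand, GRCh38) encodes prostate-specific antigen, the best known androgen target. It had 979, 1089.6 and 1249.9 TPM in guide 1 vehicle libraries and 2575, 2487 and 2368 TPM with enzalutamide, so the lowest drug library was well above the highest vehicle library. The change was 1.17 (SE 0.10, adjusted p = 9.2e-04). In control cells KLK3 went the other way, from 964, 1004 and 1004 TPM to 164, 168 and 157 TPM (-2.60, SE 0.032), and the difference between the cells was 3.76 (SE 0.11, adjusted p = 1.9e-08). The vehicle libraries of both cells lay between 964 and 1249.9 TPM, and the drug libraries of guide 1 and control cells lay on opposite sides of it. The 250 bases before the KLK3 start in RefSeq (chr19:50854665-50854914, plus strand, GRCh38.p14) are shown because KLK3 carries this finding, with the letters AGAACA, the half-site of the steroid response element, in capitals.
KLK3: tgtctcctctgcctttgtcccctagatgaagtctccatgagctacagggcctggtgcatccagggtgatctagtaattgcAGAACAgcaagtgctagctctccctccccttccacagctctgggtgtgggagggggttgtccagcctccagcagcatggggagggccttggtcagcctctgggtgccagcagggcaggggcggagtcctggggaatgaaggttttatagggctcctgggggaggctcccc
The match begins 170 bases before the start. AGAACA was searched on both strands and was found in 1 of the 26 androgen-responsive genes with a promoter in the table (3.85%), KLK3, and in 7.2% of the promoters of all tested genes.

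TMEFF2, a membrane protein gene, rose from 9.39, 8.47 and 8.10 to 13.8, 13.2 and 12.8 TPM (0.57, adjusted p = 0.0032), while in control cells it was nearly lost, at 0.0240 to 0.0532 TPM after 7.51 to 7.68 TPM (-3.05, interaction 3.62). These groups did not overlap in either cell. TARP, which lies within the T cell receptor gamma locus and shares sequence with it, had 22.2, 19.6 and 17.3 TPM in guide 1 vehicle libraries and 24.3, 23.3 and 22.2 TPM with the drug (0.24, adjusted p = 0.14), against -3.75 in control cells (interaction 3.99). Without guide 1 vehicle replicate 1 the TARP change passed (0.32). SLC45A3, the prostate antigen prostein, had 81.1, 105 and 127 TPM and 71.6, 68.7 and 63.2 TPM (-0.59, SE 0.17, adjusted p = 0.052), a change just short of the threshold that median-of-ratios scaling brought past it (-0.62, adjusted p = 0.028) or quantile normalization (-0.61, adjusted p = 0.024). It also passed without guide 1 vehicle replicate 1 (-0.76) or 3 (-0.44), with array weights (-0.60) and in fits of 12 or 18 libraries. In control cells SLC45A3 fell from 119 to 123 to 6.398 to 7.72 TPM (-3.94), so that all 3 drug libraries of guide 1 were far above those of the control (interaction 3.34, adjusted p = 2.0e-06).

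KLK2, the paralog next to KLK3, fell from 68.7, 75.8 and 89.7 to 52.6, 54.5 and 52.1 TPM in guide 1 cells (-0.54, adjusted p = 0.016) and more in control cells (-1.91, interaction 1.37). Its guide 1 call was lost without guide 1 vehicle replicate 2 (-0.56) or without enzalutamide replicate 1 (-0.53), 2 (-0.56) or 3 (-0.53). TMPRSS2, a membrane protease gene, was 26.5 to 29.3 TPM without and 24.0 to 27.3 TPM with the drug (-0.11, SE 0.072, adjusted p = 0.31), and it fell in control cells (-1.004, interaction 0.89, adjusted p = 5.2e-05). Another list held the genes of the glucocorticoid receptor and a related receptor, and targets shared with androgen signalling. Of the 10 tested, 3 were lower and none higher in guide 1 cells, against 7 lower and 2 higher in control cells. The shares of all genes were 12.1% lower and 11.5% higher in guide 1 cells, and 28% and 33.3% in control cells. The interaction was called above 0 for 6 and below 0 for 1, where 9.57% and 13.7% of all genes were called so. CEBPD changed by -0.65 in guide 1 and -1.65 in control cells (interaction 1.00), and ZBTB16 by -0.42 and -1.64 (interaction 1.22).

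**Figure D4:**
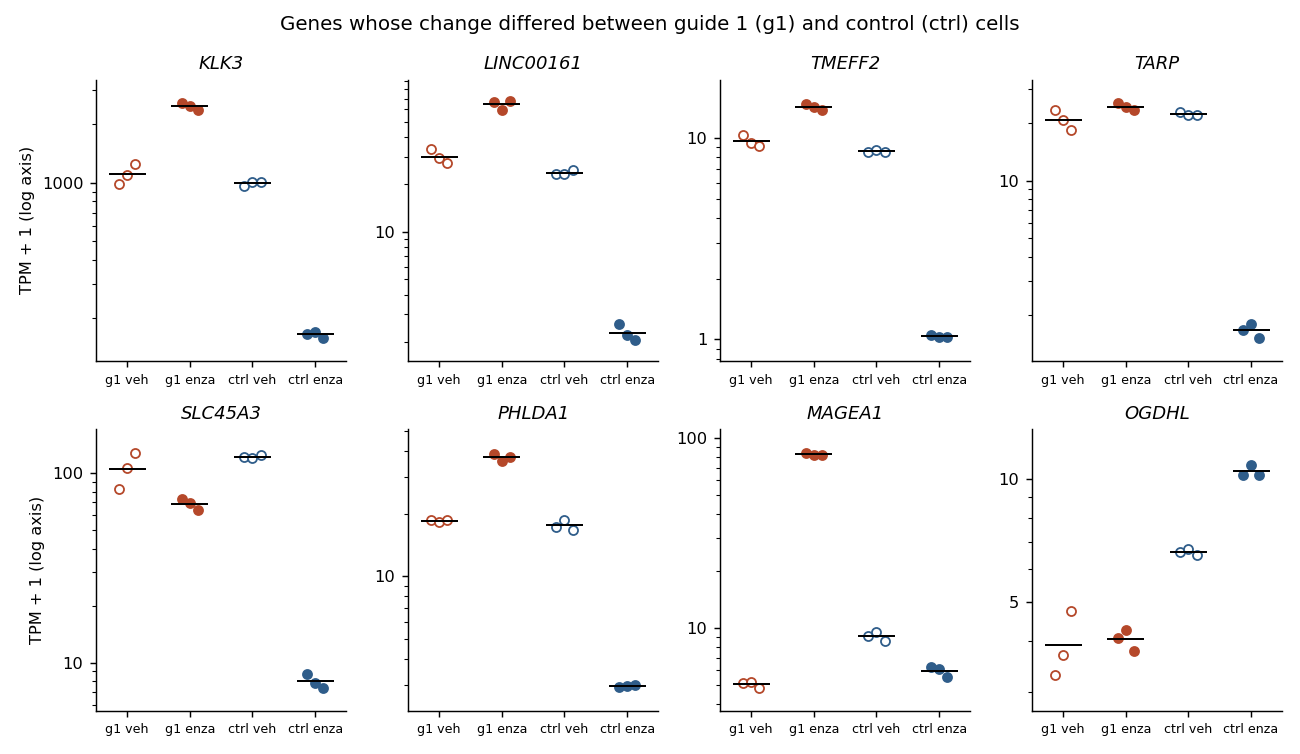
TPM + 1 on log axes for 8 genes whose change differed between the cells, with guide 1 in red, control in blue, open points for vehicle and filled points for enzalutamide, and a line at the mean of 3 libraries. KLK3, TMEFF2, PHLDA1 and LINC00161 are higher with the drug in guide 1 cells and lower with it in control cells, and OGDHL is higher with the drug in control cells.

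Most genes that androgen represses rose in guide 1 cells. Of 12 tested, of 14 listed, 9 were higher and 3 lower, with a median of 1.34, against 8 higher and 3 lower and a median of 1.95 in control cells. Among all genes 11.5% were called higher and 12.1% lower in guide 1 cells, and 33.3% and 28% in control cells. The 3 lower ones were the glucuronosyltransferases UGT2B15 and UGT2B17 and the esterase BCHE (-1.15), and BCHE was named after its values were seen. CITED2, a co-regulator of transcription, rose from 374, 367 and 315 to 1307, 1229 and 1301 TPM (1.86, 2.62 in control cells). The matricellular protein gene CCN3 was at 0.0546 to 0.187 TPM without and 4.77 to 5.49 TPM with the drug (2.42, 2.99 in control cells).

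Many genes of lipid synthesis, which androgen promotes in prostate cells, fell in guide 1 cells. Of 19 fatty acid synthesis genes 13 were lower and 1 higher, with a median of -0.77, and in control cells 17 were lower and 1 higher, with a median of -1.11. Among all genes 12.1% were called lower and 11.5% higher in guide 1 cells, and 28% and 33.3% in control cells. The interaction was called above 0 for 8 and below 0 for 3. FASN, the fatty acid synthase, had 989, 1363 and 1708 TPM without and 536, 529 and 504 TPM with the drug (-1.34, SE 0.20, adjusted p = 0.0068). All drug libraries were lower, though the vehicle libraries differed among themselves, with replicate 1 the lowest. The desaturase SCD (-1.34) and the elongases ELOVL2 (-3.27) and ELOVL5 (-1.86) fell, as did the lipogenic regulator THRSP (-1.55), and in control cells the changes were -1.70, -3.92, -2.27 and -1.19. The elongase ELOVL7 fell from 20.8 to 25.3 to 6.44 to 7.34 TPM (-1.59), less than in control cells (-3.69, interaction 2.10, adjusted p = 1.3e-06). Of 25 cholesterol synthesis genes tested, 12 were lower and none higher in guide 1 cells (median -0.47), and 21 lower and 1 higher in control cells (median -0.65). The interaction was called above 0 for 9 and below 0 for 2, where 9.57% and 13.7% of all genes were called so. INSIG1, which retains the SREBP activator in the endoplasmic reticulum, fell from 525, 512 and 564 to 192, 182 and 195 TPM (-1.49, -1.92 in control cells, interaction 0.43). The sterol carrier STARD4 (-1.58), squalene synthase FDFT1 (-1.46, interaction 0.48), HSD17B7 (-1.11) and HMGCS1 (-0.85) fell with it.

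Genes raised by the hypoxia-inducible factors, whose stability the 2-oxoglutarate-dependent prolyl hydroxylases control, fell in guide 1 cells, with a median close to that of control cells. Of 16 tested, 14 were lower and none higher in guide 1 cells (median -0.79), and 13 were lower and 2 higher in control cells (median -0.76). The shares of all genes were 12.1% lower and 11.5% higher in guide 1 cells, and 28% and 33.3% in control cells. The interaction term passed for 2 of the 16, both below 0, where 13.7% of all genes were called below 0. LOX, which crosslinks collagen, fell from 9.31, 8.94 and 7.94 to 0.718, 0.450 and 0.665 TPM (-2.60, adjusted p = 3.6e-05, -2.33 in control cells), with no overlap. BNIP3, a mitophagy receptor, fell from 119, 109 and 114 to 56.6, 54.9 and 61.3 TPM (-0.97, adjusted p = 3.7e-04, -1.02 in control cells). The transcription factor BHLHE40 (-1.22) and the peptide hormone gene ADM (-1.20) fell too. The upstream sequences of LOX (chr5:122078361-122078509, minus strand) and BNIP3 (chr10:131982014-131982173, minus strand; RefSeq, GRCh38.p14) are shown without bases annotated as UTR, since both fell in both cells, with matches to ACGTG, the core letters bound by the hypoxia-inducible factors, in capitals.
LOX: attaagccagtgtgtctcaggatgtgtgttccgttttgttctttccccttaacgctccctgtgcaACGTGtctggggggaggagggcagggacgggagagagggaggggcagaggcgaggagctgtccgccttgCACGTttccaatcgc
BNIP3: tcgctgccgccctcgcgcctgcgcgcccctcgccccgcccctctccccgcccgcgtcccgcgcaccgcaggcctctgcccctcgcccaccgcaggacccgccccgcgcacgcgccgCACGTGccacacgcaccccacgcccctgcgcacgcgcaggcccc
In BNIP3 the capitals are 1 CACGTG, which reads ACGTG on both strands. ACGTG on either strand, which also lies within the E-box CACGTG, was found in 8 of the 13 hypoxia genes with a promoter in the table (61.5%) and in 24.2% of the promoters of all tested genes.

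Among 31 2-oxoglutarate-dependent dioxygenases tested, 9 were lower and 1 higher in guide 1 cells, with a median of -0.07, and 14 lower and 9 higher in control cells, with a median of -0.01. Over all genes 12.1% were called lower and 11.5% higher in guide 1 cells, and 28% and 33.3% in control cells. The oxygen sensor EGLN1 fell from 15.5, 17.1 and 17.8 to 8.55, 7.50 and 8.92 TPM (-0.93, -0.88 in control cells). The collagen hydroxylases PLOD2 (-1.35) and P4HA1 (-0.67), the aspartyl hydroxylase ASPH (-0.81) and the histone demethylase KDM7A (-0.66) also fell, and control cells gave -0.95, -0.64, -0.84 and -0.29. EGLN1 and P4HA1 are also on the hypoxia list.

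Proliferation genes, most of them lower in control cells, were not called lower in guide 1 cells except for 1 gene of mitosis. Of 29 genes of DNA replication and the G1/S transition, 12 were higher and none lower in guide 1 cells, with a median of 0.27, while 16 were lower and 2 higher in control cells, with a median of -0.15. Among all genes 11.5% were called higher and 12.1% lower in guide 1 cells, and 33.3% and 28% in control cells. In 21 of the 29 all drug libraries of guide 1 were above all vehicle libraries, where 23.3% of all genes were so. The interaction term was above 0 and called for 19 of the 29, where 9.57% of all genes were called so. GINS2, a subunit of the replicative helicase, had 10.99, 10.8 and 12.3 TPM without and 17.99, 18.1 and 17.9 TPM with the drug (0.62, adjusted p = 0.0015). In control cells it was 12.6 to 13.1 and 13.1 to 14.1 TPM (0.076, interaction 0.55, adjusted p = 4.1e-04). UHRF1, which maintains DNA methylation at replication forks, rose from 4.63 to 5.23 to 7.11 to 7.23 TPM (0.45, 0.067 in control cells, interaction 0.38). The letters TTTCCCGC, an E2F site searched on both strands, were found in 7 of 24 promoters of the list (29.2%) and in 2.29% of those of all tested genes. The count of 12 was 4 without guide 1 vehicle replicate 2, 19 without vehicle replicate 3, and 3, 4 and 3 without enzalutamide replicates 1, 2 and 3, with medians from 0.22 to 0.31, and was 0 with mitochondrially encoded rows kept, where the median was 0.52 beside 0.26 over all genes. Of 32 genes of mitosis, 1 was higher and 1 lower in guide 1 cells (median -0.02), against 1 higher and 27 lower in control cells (median -0.29). The interaction was called for 18 of the 32, all above 0, against the same 9.57% of all genes. Without guide 1 vehicle replicate 3, 6 of the mitosis genes were higher and 8 lower. The mitotic kinase BUB1 was the most changed, from 17.3 to 19.6 to 13.3 to 14.1 TPM (-0.42, -0.37 in control cells).

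Neuroendocrine markers describe the neuron-like state that prostate cancer can take when androgen signalling is blocked. Of 20 listed, 7 were tested, with 4 higher and 1 lower in guide 1 cells and 5 higher and 2 lower in control cells, beside 11.5% and 12.1%, and 33.3% and 28%, of all genes, and the defining markers CHGA and INSM1 did not pass the filter on low values. ENO2, the neuronal enolase, rose from 12.4, 14.4 and 20.9 to 48.1, 47.8 and 46.6 TPM (1.55, adjusted p = 0.0028, 2.41 in control cells). ONECUT2, a driver of the neuroendocrine state, fell (-0.82), and SYP did not pass at 1.499 to 2.00 TPM without and 1.65 to 1.91 TPM with the drug (-0.025, adjusted p = 0.85). Of 8 stemness and plasticity genes tested, 2 were higher and 4 lower. SOX9 rose from 20.4, 19.5 and 15.9 to 80.2, 75.9 and 74.6 TPM (2.00, 3.09 in control cells), while NR2F1 (-1.53), SOX4 (-1.24) and KLF5 (-1.12) fell, with control changes of -1.26, -1.38 and -1.17.

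Of 8 HES and ID regulators tested, helix-loop-helix proteins that act in differentiation, 5 were higher and 1 lower in guide 1 cells. For this and the next 2 lists, the shares of all genes were 11.5% higher and 12.1% lower in guide 1 cells. In control cells they were 33.3% and 28%. ID1 rose from 23.1, 24.5 and 32.7 to 159.9, 153 and 161 TPM (2.53), ID3 by 1.85, HES1 by 1.27 and HEY1 by 1.07, with control changes of 2.17, 1.33, 1.99 and 1.21. HES6 fell from 55.4, 73.8 and 141 to 13.3, 13.3 and 10.8 TPM (-2.65, -3.63 in control cells). Of 21 luminal prostate markers 9 were higher and 4 lower in guide 1 cells (7 lower without guide 1 vehicle replicate 3, and 2 without vehicle replicate 2 or any 1 of the enzalutamide replicates), and 7 higher and 12 lower in control cells. The acid phosphatase ACP3 (1.73) and GATA2, a lineage transcription factor (1.09), rose in both cells (2.16 and 1.60 in control cells), and MSMB, a secreted prostate protein, fell (-1.05 against -1.69). Of the 5 mesenchymal genes tested, 3 were lower and 1 higher in guide 1 cells, and 3 lower and 2 higher in control cells. SNAI1, an EMT transcription factor, rose (0.59, 0.61 in control cells), a call lost without guide 1 vehicle replicate 2 (0.57) or any 1 of the enzalutamide replicates. SNAI2 (-2.28) and VIM (-2.15) fell in both cells (-2.76 and -1.91). FN1, fibronectin, fell in guide 1 cells from 27.9 to 29.3 to 18.3 to 20.8 TPM (-0.54) and rose in control cells (0.74, interaction -1.28, adjusted p = 9.4e-06).

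The remaining lists were less uniform, and their counts moved with single libraries. Among all genes 11.5% were called higher and 12.1% lower in guide 1 cells. Of 25 p53 targets 6 were higher and 2 lower in guide 1 cells, with 11 and 4 without guide 1 vehicle replicate 3, and 3 higher without vehicle replicate 2 or enzalutamide replicate 1 or 3. PLK2, a kinase of the stress response, rose from 17.9 to 18.9 to 85.9 to 90.2 TPM (2.21, 2.85 in control cells) and the mTORC1 inhibitor SESN1 from 2.91 to 3.12 to 9.03 to 9.45 TPM (1.34, 2.25 in control cells), while GDF15, a stress cytokine, fell (-1.18, -1.68 in control cells). The antiproliferative gene BTG2 rose from 109 to 118 to 165 to 178 TPM (0.59), less than in control cells (1.73, interaction -1.14, adjusted p = 1.6e-06). Of 16 genes of ERK feedback 5 were higher and 4 lower, with 3 and 3 without enzalutamide replicate 1 or 3. PHLDA1 rose from 17.7, 17.2 and 17.5 to 37.8, 34.9 and 36.3 TPM in guide 1 cells (1.01) but fell from 15.7 to 17.6 to 1.95 to 2.02 TPM in control cells (-2.56, interaction 3.57, adjusted p = 8.5e-10). Of 20 interferon response genes 8 were higher and 4 lower, with 5 and 5 under median-of-ratios scaling, 4 and 4 under quantile normalization, and 4 and 3 without vehicle replicate 2 or any 1 of the enzalutamide replicates, and DTX3L (0.66) and OAS3 (0.57) were among the higher and IFI44 (-0.81) among the lower. Of 21 glycolysis genes 3 were higher and 7 lower, with 2 lower without vehicle replicate 2 or any 1 of the enzalutamide replicates. LDHA, lactate dehydrogenase, fell from 827 to 849 to 501 to 536 TPM (-0.70, -1.03 in control cells). Of 72 nuclear-encoded respiratory chain genes 4 were called, 1 higher and 3 lower, against 8 higher and 51 lower in control cells, where all genes gave 23.6% called in guide 1 and 61.2% in control cells. Of 71 cytosolic ribosomal protein genes 5 were called, 2 higher and 3 lower, against 33 higher and 10 lower in control cells. Without guide 1 vehicle replicate 3 the respiratory chain counts were 25 higher and 16 lower and the ribosomal counts 33 higher and 14 lower. Without vehicle replicate 2 or any 1 of the enzalutamide replicates they were 0 and 0, and 0 and 1.

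**Figure D5:**
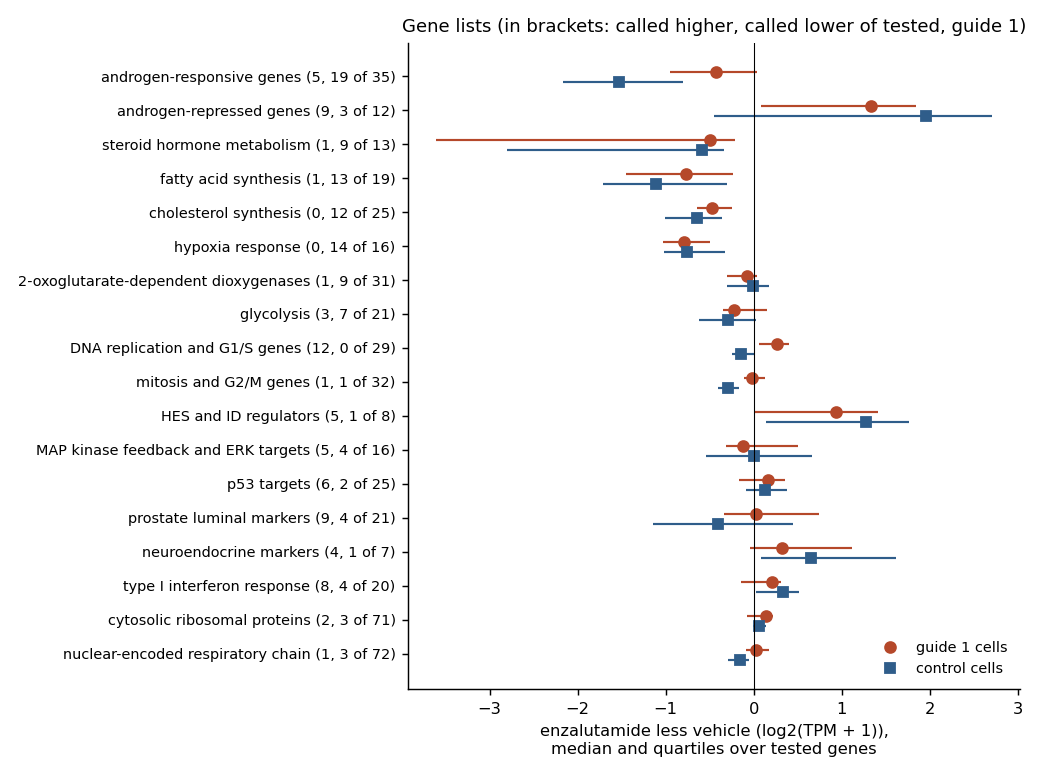
Median change with enzalutamide over the tested genes of 18 lists, as circles for guide 1 cells and squares for control cells, with lines from the lower to the upper quartile of genes and, in brackets, the genes called higher and lower of those tested in guide 1 cells. Androgen-responsive genes, G1/S genes and mitosis genes lie nearer to or above 0 in guide 1 cells, while the medians of the hypoxia list, -0.79 and -0.76, lie close together.

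The responses of a few other genes differed widely between the cells. MAGEA1, a cancer-testis antigen on the X chromosome, had 4.12, 4.20 and 3.87 TPM in guide 1 vehicle libraries and 82.9, 80.3 and 81.0 TPM with enzalutamide (4.03, SE 0.051, adjusted p = 3.4e-06). In control cells it went from 8.12, 8.59 and 7.59 to 5.27, 5.12 and 4.53 TPM (-0.61), so that the drug libraries of guide 1 stood above all others (interaction 4.63, adjusted p = 8.5e-10). The long noncoding RNA LINC00161 rose from 32.4, 28.3 and 26.2 to 65.6, 58.3 and 66.4 TPM in guide 1 cells (1.11) and fell from 22.1 to 23.7 to 1.07 to 1.59 TPM in control cells (-3.37, interaction 4.48). SYT4, a synaptotagmin, was 19.1, 16.7 and 13.6 TPM in guide 1 vehicle libraries and 11.1, 9.75 and 10.4 TPM with the drug (-0.60, adjusted p = 0.020), and rose in control cells from 11.6 to 13.5 to 59.4 to 64.9 TPM (2.22, interaction -2.82). The guide 1 call of SYT4 was lost without vehicle replicate 2 (-0.59) or without enzalutamide replicate 1 (-0.65), 2 (-0.56) or 3 (-0.60). ADCYAP1, the neuropeptide PACAP, rose to 2.28 to 2.54 TPM in guide 1 cells (1.75) and to 16.3 to 17.6 TPM in control cells (4.14, interaction -2.39).

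Counts of calls were far smaller with mitochondrially encoded rows kept and TPM as deposited, a setting that also leaves out the rescaling and tests 11461 genes in place of 14663. The median change of all genes moved from 0.029 to 0.26, and 385 genes were called in guide 1 cells, 279 higher and 106 lower. Control calls then numbered 3792, called interactions 232, and genes called in both with the same sign 341. Of the 89 genes named here with a call in guide 1 cells, 81 had a value in that setting and 53 kept the call with its sign, among them KLK3, TMEFF2, MAGEA1, ADRA2A, NTS, UGT2B11, DUSP4, MAF and LOX. The called counts of the androgen-responsive, fatty acid, cholesterol and hypoxia lists were then 3 higher and 4 lower, 0 and 5, 0 and 3, and 0 and 2, with medians of -0.12, -0.55, -0.17 and -0.43. The other 28 lost their call: FKBP5, ELL2, C1orf116, KLK2, CEBPD, ZBTB16 and BCHE of the steroid-responsive genes, FASN, SCD, HMGCS1 and HSD17B7 of lipid synthesis, BNIP3, BHLHE40, EGLN1, P4HA1, ASPH and LDHA of the hypoxia, dioxygenase and glycolysis lists, GINS2, UHRF1 and BUB1 of proliferation, and GDF15, BTG2, SOX4, ONECUT2, FN1, SNAI1, OAS3 and SYT4. The change itself was larger in that setting for GINS2 (0.78), BTG2 (0.88), OAS3 (0.69) and UHRF1 (0.52). The median over all genes was larger there too (0.26 against 0.029), so these values do not show a stronger response. The interactions of UGT2B11, UGT2B15, MAF, ACSL3, ZBTB10, INSIG1, FDFT1, BTG2, FN1, GINS2, UHRF1 and OGDHL were lost too, with that of GINS2 at 0.80 there. With guide 1 vehicle replicate 3 as the only vehicle library, 4021 genes were called.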

How the data were processed

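Libraries were made from enriched mRNA with a kit that marks strand and read as paired ends, per the labels' protocols. STAR and GRCh38 are named in the submitters' processing notes, with no version, and how reads were counted is not given in the sources used here. Expression was deposited by the authors as TPM for 37347 rows. TPM keeps no depth, so the depth is unknown. Rows without a name (10345), 37 mitochondrially encoded rows and 69 rows of 3 symbols with at least 5 rows were left out, 32 symbols with fewer rows were summed, and columns were rescaled to the same total before log2(TPM + 1). limma 3.58.1 (R 4.3.3) with a trended prior was fitted to the 6 guide 1 and the 6 control libraries separately, and to all 12 for the interaction. The procedure was tested on simulated data with independent noise of the same spread in every group. The guide 1 vehicle libraries varied more than the others, so that test cannot show how reliable the calls are here. Genes with at least 1 TPM in 3 or more of the 6 guide 1 libraries were tested, and p-values were adjusted by Benjamini-Hochberg over all of them. Members, the 35 gene lists and tests were chosen with earlier results of these data known.

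Named genes were the 12 rising and 12 falling in guide 1 cells and 10 and 10 in control cells of largest change (called, at least 5 TPM, no overlap), 6 and 6 interactions, up to 5 per list and 16 chosen genes. Pseudogenes and small RNAs among them are left out, since their reads may belong to copies, and some others are not reported here. FASN, SCD, ELL2, C1orf116 and BCHE were chosen after their values were seen. Promoters (the first start listed in RefSeq, 9783 of 14663 genes) and GENCODE release 29 coordinates are on GRCh38. Python 3.11.15 and matplotlib 3.10.9 drew figures. Alternatives were pseudocounts of 0.1 and 5, filters, scalings, array weights, a replicate block, wider fits and each library left out.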

Additional observations from a re-analysis of the deposited data

Results flagged for a closer look

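Of the interaction terms printed for single genes in the report, the enzalutamide change in guide 1 cells less that in control cells, 35 passed limma's threshold and are given here. Other named genes whose term is not printed passed as well. Values are on the log2(TPM + 1) scale, with 3 libraries in each of the 4 groups. The interaction was positive for the androgen-responsive genes KLK3 (3.76), KLK2 (1.37), TMEFF2 (3.62), TARP (3.99), SLC45A3 (3.34), TMPRSS2 (0.89), FKBP5 (0.58), ELL2 (1.41) and C1orf116 (1.79). It was also positive for CEBPD (1.00), ZBTB16 (1.22), ELOVL7 (2.10), PHLDA1 (3.57), MAGEA1 (4.63), LINC00161 (4.48), GINS2 (0.55), UHRF1 (0.38), ACSL3 (0.44), ZBTB10 (0.50), INSIG1 (0.43) and FDFT1 (0.48). The term was negative for genes that rose in both cells, NTS (-1.76), LRRN1 (-2.10), TRIB2 (-1.82), IGFBP3 (-2.48), BHLHE22 (-1.11), LRATD1 (-1.54), ADCYAP1 (-2.39) and BTG2 (-1.14), for genes that fell in both cells and more in guide 1 cells, UGT2B11 (-1.27), UGT2B15 (-0.81) and MAF (-0.97), and for SYT4 (-2.82), FN1 (-1.28) and OGDHL (-0.60).

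Mitochondrially encoded rows, which entered no comparison, held a larger share of the TPM in guide 1 vehicle libraries (67.0% ± 8.65, SD, n = 3) than in control vehicle libraries (54.5% ± 0.904, SD, n = 3). Its part in the results was not tested.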

How the results depend on the processing

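Of 94 guide 1 values of named genes, 61 kept direction and side of the threshold in every setting that gave them a value. So did 23 of 35 interaction values, none of which changed sign. Not all of the 24 settings run gave a value. Leaving out a control library does not alter the guide 1 fit, and the fit of 12 libraries added no interaction value. Of the 89 called genes, 81 had a value with mitochondrially encoded rows kept and 79 with the 5 TPM filter. The number of guide 1 calls was not stable: from 3462 it went to 385 with mitochondrially encoded rows kept, 2071 with a filter at 5 TPM, 11574 with array weights, 5952 in a fit of 12 libraries and 7029 in one of 18, and to 1544 to 7430 with 1 library left out. Control calls went from 8977 to 3792 with mitochondrially encoded rows kept. Interaction calls went from 3412 to 232 with those rows kept, 2272 with the 5 TPM filter, 9597 with array weights, and 2357 to 7371 with 1 library left out. Calls shared with control cells went from 2637 to 341, 1605 and 5815 in the same settings, and to 1320 to 4131. The causes were not tested. The 5 TPM filter tested 9915 genes and the setting with mitochondrially encoded rows kept, which is not rescaled, 11461, against 14663.

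With the replicate number as a block, guide 1 calls numbered 1255 and shared calls 1067. Same-numbered libraries did not deviate together (r of -0.15, -0.12 and -0.31 for guide 1, and 0.045, 0.027 and -0.063 for control cells). No guide 1 vehicle library correlated best with its own number, while control vehicle replicate 1 did (0.045 against -0.021). With 3 libraries per group these values cannot show whether same-numbered samples shared a culture or batch, and the labels do not say. BUB1, C1orf116, KLK2, SNAI1, SYT4, ZBTB16 and the ZBTB10 interaction did not pass under the block.

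Changes that were not called turned sign for OGDHL (-0.056 without guide 1 vehicle replicate 1, -0.23 with guide 1 vehicle replicate 3 as the only vehicle library), OGDH (-0.040 and -0.091 in the same settings), SYP and TMPRSS2 (0.17 with mitochondrially encoded rows kept). With 1 library left out, changes ranged from -0.056 to 0.21 for OGDHL, from -0.040 to 0.13 for OGDH and from -0.11 to 0.025 for SYP. The OGDHL change passed with array weights (0.12, adjusted p = 0.026) and had no value with the 5 TPM filter. TPM keeps no depth, so what depth limits cannot be given.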

Other observations

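ATF4 targets, which serve amino acid supply and the integrated stress response, were mostly lower in control cells and mostly not called in guide 1 cells. Among all genes 11.5% were called higher and 12.1% lower in guide 1 cells, and 33.3% and 28% in control cells. Of 27 tested, 2 were higher and 5 lower in guide 1 cells (median 0.019), against 2 higher and 21 lower in control cells (median -0.36), and the interaction was called above 0 for 11 and below 0 for 1, where 9.57% and 13.7% of all genes were called so. Of 24 genes of purine and pyrimidine synthesis, 4 were higher and 2 lower in guide 1 cells (median 0.069) and 4 higher and 15 lower in control cells (median -0.20), with 11 interactions called above 0 and none below. Without guide 1 vehicle replicate 3, 7 ATF4 targets were higher and 6 lower in guide 1 cells, and 8 and 4 of the nucleotide genes. Without vehicle replicate 2 or enzalutamide replicate 1 none of either list was called higher.

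Of 11 antigen presentation genes, 3 were higher and 1 lower in guide 1 cells (median 0.11), against 9 higher and 2 lower in control cells (median 0.48). The shares of all genes were 11.5% higher and 12.1% lower in guide 1 cells, and 33.3% and 28% in control cells. The interaction was called for 5 of the 11, all below 0, where 13.7% of all genes were called below 0. The count of 3 was 5 without guide 1 vehicle replicate 3, and 1 without vehicle replicate 2 or any 1 of the enzalutamide replicates.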
